A study of Arabidopsis thaliana with 12 samples.

Results

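FBL17 (AT3G54650), an F-box protein of the cell cycle, and AT3G20150, a kinesin motor protein, were followed as 2 cell division genes of Arabidopsis thaliana. They are 2 of the 692 probes paired by the platform annotation with exactly 1 gene, out of 3439 probes on the array, and each gene has a single probe. The genes were chosen by their measured change: their levels were higher with staurosporine in each of 3 sets of consecutive arrays (arrays 1 and 2, 3 and 4, and 5 and 6 of each group). Their difference between the groups is therefore given as a description, with no test. The pStau group consists of 6 arrays with total RNA of wild-type plants, ecotype Columbia 0, given water for 4 h and staurosporine for the next 4 h. Staurosporine inhibits many protein kinases, and its dose is labelled as 25 mM at pH 5.5. The H2O group consists of 6 arrays of the same wild type and ecotype, with water for all 8 h. The labels give neither organ nor age, and do not tell whether each array had its own plants, so any spread or p-value here covers only these samples and may be technical.

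F-box proteins choose the targets of SCF ubiquitin ligases, which mark proteins for breakdown. FBL17 is known from Arabidopsis pollen and dividing tissues for removing KRP proteins, which inhibit cyclin-dependent kinases, so that cells can enter DNA replication. Kinesins walk along microtubules. In plant cells they build the spindle and the phragmoplast, the array of microtubules that lays down the new wall between daughter cells, and they also carry cargo in cells that do not divide.

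The deposited values were intensities between 0 and 100 without a stated unit. The median intensity was lower on pStau arrays, at 0.169 to 0.392, than on H2O arrays, at 0.405 to 0.485, and pStau arrays 3 to 6 had the 4 lowest medians. Between 12.3% and 17.3% of values were 0 on pStau arrays, against 11.5% to 13.1% on H2O arrays. The summed intensity was alike, at 3139 to 3541 on pStau arrays and 3054 to 3562 on H2O arrays, so the distributions differed in shape. The arrays were quantile normalized for this reason, which removes such a difference whatever its source. Whether its source was technical was not tested, and both the deposited and the normalized values are given below. Neither member was at 0 on any array. In RNA of whole samples, more cells of a type and more transcript per cell cannot be told apart. Of the markers listed for green tissue, 1 of 13 was measured by a single-gene probe, LHB1B2, a chlorophyll a/b-binding protein. Its log2 level was -0.06 to 0.67 on pStau arrays and 0.47 to 1.52 on H2O arrays, so the groups overlapped. It fell in pStau, with a log2 change of -0.84 ± 0.20 (SE, n = 6 per group, limma adjusted p = 0.00808). This p takes the 6 arrays of a group as independent. With consecutive arrays averaged, only 3 of all tested probes were called, and LHB1B2 was not followed singly there. The part of LHB1B2 in the values below was not tested. The lists for root and pollen had no such probe, and AT3G20150 itself was the 1 of 5 markers of dividing cells that was measured.

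FBL17, the F-box protein, had deposited intensities of 0.418, 0.371, 0.344, 0.342, 0.468 and 0.461 on pStau arrays 1 to 6, against 0.341, 0.312, 0.255, 0.224, 0.323 and 0.410 on H2O arrays 1 to 6. The 2 groups overlapped, because H2O array 6 was brighter than pStau arrays 2, 3 and 4. Within each number, however, the pStau array was the brighter one, in 6 of 6 pairs and by 1.12-fold to 1.53-fold. Over all tested probes, 7.43% were higher in all 6 pairs as deposited. The mean intensity was 0.401 ± 0.057 in pStau and 0.311 ± 0.066 in H2O (SD, n = 6 each).

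AT3G20150, the kinesin, had deposited intensities of 0.809, 0.808, 0.583, 0.597, 0.646 and 0.681 on pStau arrays 1 to 6, against 0.530, 0.522, 0.428, 0.421, 0.404 and 0.401 on H2O arrays 1 to 6. Here the groups did not overlap, and the dimmest pStau array, number 3, was brighter than the brightest H2O array, number 1. All pStau arrays lay above all H2O arrays for 3.35% of the tested probes as deposited. The mean was 0.687 ± 0.10 in pStau and 0.451 ± 0.059 in H2O (SD, n = 6 each), and the pairs differed by 1.36-fold to 1.70-fold.

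**Figure D1:**
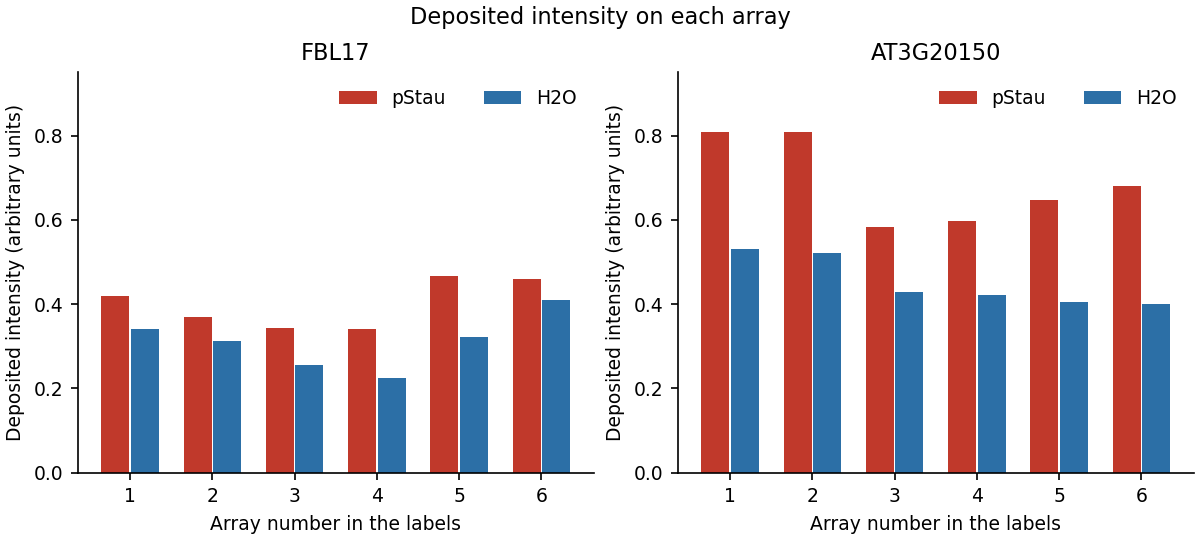
Deposited intensity (arbitrary units, from 0) of FBL17 and AT3G20150 on each array, by the array number in the labels, with pStau left of H2O and 1 bar per array. The pStau bar is the taller one in 6 of 6 pairs for both genes, and AT3G20150 runs from 0.583 to 0.809 in pStau against 0.401 to 0.530 in H2O.

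The place of a probe among all 3439 probes of its array does not depend on how the array was scaled. It does depend on the intensity of the other probes. Quantile normalization sets levels by this place, so the places are no separate evidence beside the normalized levels. FBL17 was brighter than 47.8% to 70.4% of probes on pStau arrays, against 31.2% to 43.5% on H2O arrays. AT3G20150 was brighter than 75.7% to 81.1% of probes on pStau arrays, against 42.5% to 54.9% on H2O arrays. In H2O, FBL17 thus lay below the middle of the array and AT3G20150 around it, and both lay higher in pStau, with no overlap of the groups for either, which held for 8.97% of the tested probes.

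After quantile normalization the log2 level of FBL17 was -1.38, -1.55, -0.80, -0.83, -0.69 and -0.71 on pStau arrays 1 to 6, against -1.97, -2.07, -2.18, -2.36, -2.13 and -1.73 on H2O arrays 1 to 6. All pStau arrays were above all H2O arrays, which held for 8.11% of the tested probes, but pStau array 2 and H2O array 6 lay close together. The mean log2 level was -0.99 ± 0.37 in pStau and -2.07 ± 0.21 in H2O (SD, n = 6 each), a difference of 1.08 ± 0.17 (SE), or 2.11-fold.

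The log2 level of AT3G20150 was -0.45, -0.41, -0.23, -0.22, -0.35 and -0.30 on pStau arrays 1 to 6, against -1.27, -1.30, -1.41, -1.41, -1.74 and -1.76 on H2O arrays 1 to 6. After normalization the pStau arrays lay in a narrow band, and the H2O arrays were further apart, with numbers 5 and 6 lowest. As deposited the SD was instead larger in pStau, at 0.10 against 0.059 in H2O. The mean log2 level was -0.33 ± 0.09 in pStau and -1.48 ± 0.22 in H2O (SD, n = 6 each), a difference of 1.16 ± 0.10 (SE), or 2.23-fold. Among the 652 single-gene probes tested, the changes of AT3G20150 and FBL17 were the 14th and 15th highest.

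**Figure D2:**
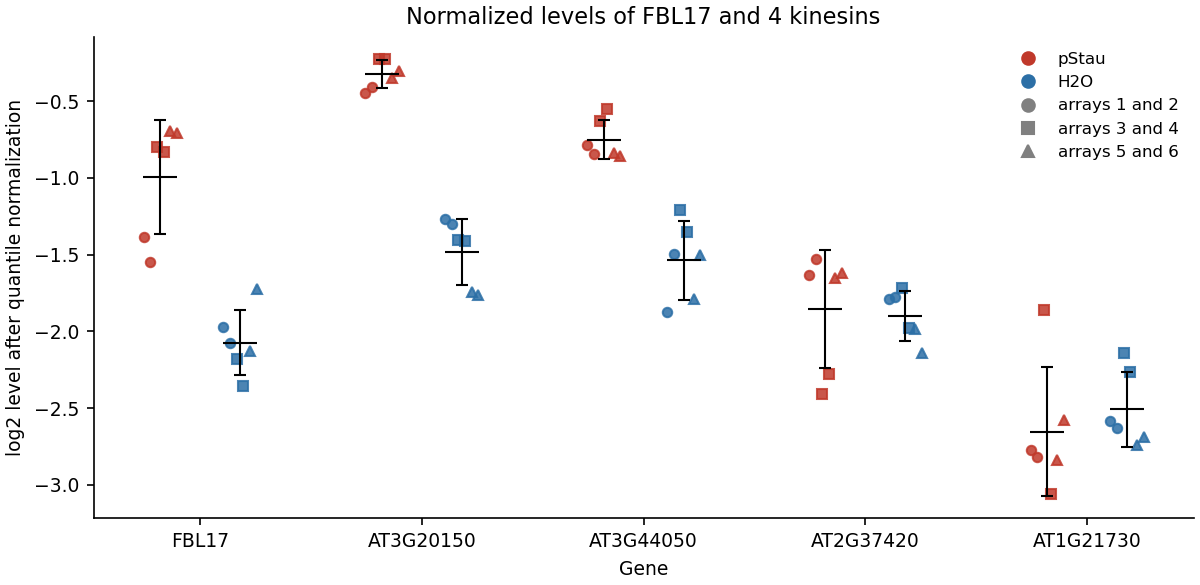
Log2 level after quantile normalization (vertical axis) of FBL17 and 4 kinesins, with pStau left of H2O. Each point is an array, shaped by array set, and the black marks are the mean and SD of 6 arrays. Levels of different genes come from different probes and cannot be set against each other. The groups are apart for FBL17, AT3G20150 and AT3G44050 and overlap for AT2G37420 and AT1G21730.

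After normalization the spread of AT3G20150 around its group means was small. Its residual SD was 0.17 on the log2 scale, and 92.2% of the tested probes had a larger one. That of FBL17 was 0.30, with 62.2% of probes above it. Arrays of the same set were nearly the same for AT3G20150, with gaps of at most 0.05 in pStau and 0.03 in H2O, against whole ranges of 0.22 in pStau and 0.49 in H2O. Most of its spread therefore lay between sets. For FBL17 the gap within a set reached 0.17 in pStau, in arrays 1 and 2, and 0.40 in H2O, in arrays 5 and 6.

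The 2 genes differed in how their change was spread over the sets. The log2 change of FBL17 in the first set (arrays 1 and 2) was 0.56, that in the second (arrays 3 and 4) was 1.45 and that in the last (arrays 5 and 6) was 1.23. The change of AT3G20150 was 0.86, 1.18 and 1.43 in the same sets. As deposited, the change of FBL17 was 0.27, 0.52 and 0.35, and that of AT3G20150 was 0.62, 0.47 and 0.72, while the median change of all tested probes was -0.17, -0.88 and -0.72. The deposited values of both genes were thus higher in pStau in every set, while those of most probes were lower. The choice of these genes required a positive change in all 3 sets, which 21.0% of the single-gene probes met. Ranked by its lowest change in a set, AT3G20150 was number 6 and FBL17 number 23 of 652. The kinesin AT3G44050, described below, also rose in every set after normalization and was number 19. As deposited, its change was 0.60, -0.10 and -0.10 in the same sets. The probe just inside that limit, of AT5G19900, had a lowest change of 0.0050, and the probe just outside, of AT1G67800, had 0, being listed at 0 on 5 pStau and 6 H2O arrays.

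**Figure D3:**
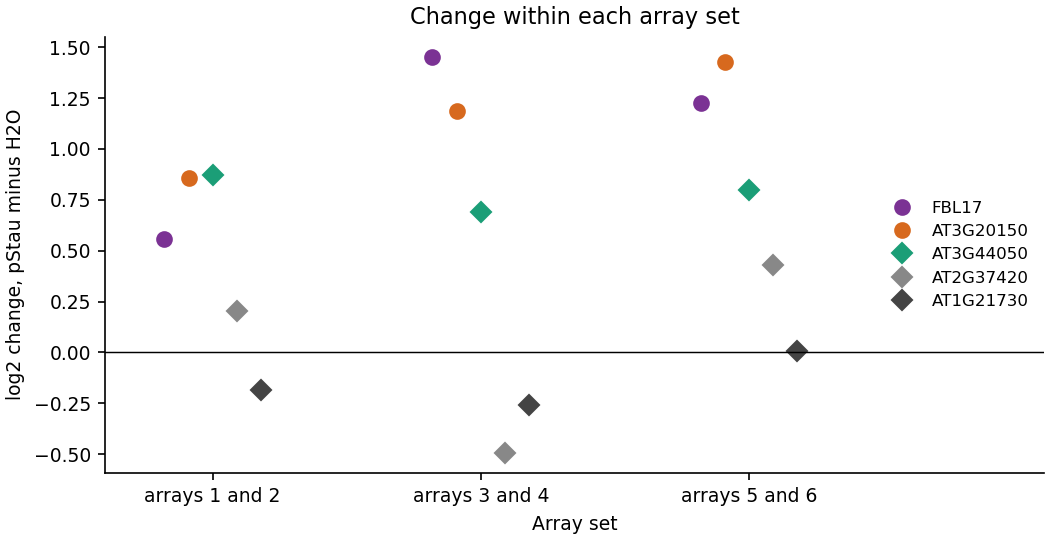
Log2 change, pStau minus H2O, after quantile normalization in each of the 3 array sets (horizontal axis), with circles for FBL17 and AT3G20150 and diamonds for the other kinesins. FBL17 and AT3G20150 lie between 0.56 and 1.45 in every set, AT3G44050 between 0.69 and 0.87, and AT2G37420 and AT1G21730 between -0.49 and 0.43.

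How far the members changed depended on the scaling of the arrays, although the direction did not. As deposited, the log2 change was 0.38 ± 0.15 for FBL17 and 0.60 ± 0.12 for AT3G20150 (SE, n = 6 per group), while the median change of all tested probes was -0.61. Relative to that median the changes were 0.99 for FBL17 and 1.22 for AT3G20150, close to the normalized ones. Quantile normalization also brings the median change near 0, at -0.0041, so this closeness is no separate evidence for the size. Scaled to a common total, the changes were 0.37 for FBL17 and 0.59 for AT3G20150. With cyclic loess, which removes a dependence of the ratio on brightness, the changes were 1.22 for FBL17 and 1.21 for AT3G20150. The ratio of both probes on the same array is free of a common factor of that array, but not of a shift that depends on brightness. The log2 ratio of AT3G20150 over FBL17, relative to its H2O mean, averaged 0.22 ± 0.24 on pStau arrays, with a range of -0.09 to 0.57, against 0 ± 0.35 on H2O arrays, with a range of -0.59 to 0.35 (SD, n = 6 each). The groups overlapped in this ratio, and the difference was smaller than the SD of either group, which does not show that the 2 genes changed equally.

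**Figure D4:**
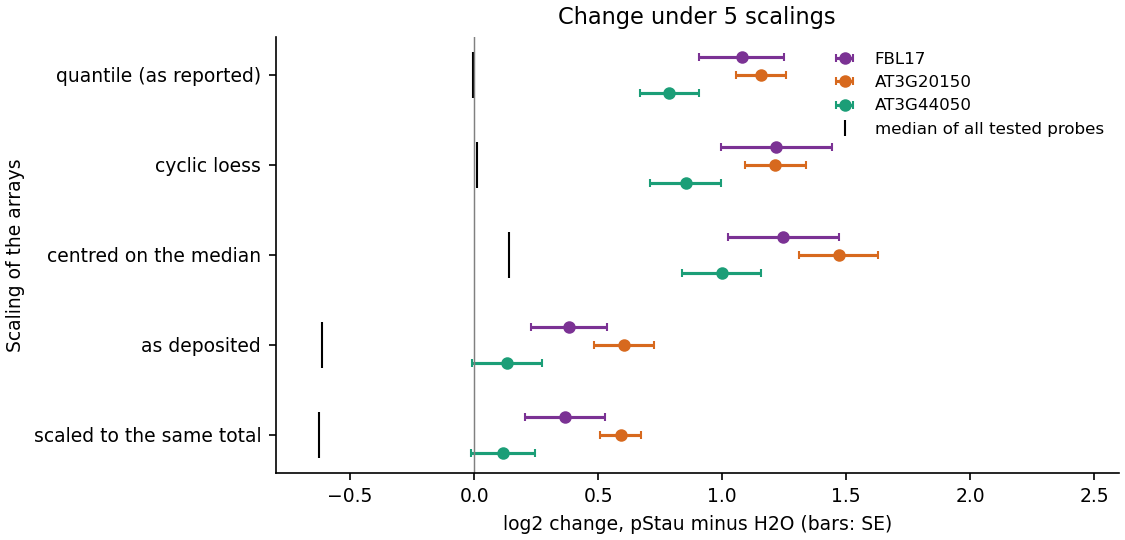
Log2 change, pStau minus H2O (horizontal axis, bars are SE), of FBL17, AT3G20150 and AT3G44050 under 5 scalings of the arrays (vertical axis), with the median of all tested probes as a black tick. FBL17 and AT3G20150 are above 0 in all 5, from 0.37 to 1.47, and the median of all probes moves between -0.63 and 0.14.

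Other genes of cell division were sought through 9 lists with 202 loci, taken from general knowledge of the Arabidopsis genome and not from the platform annotation. Only 6 of these loci had a single-gene probe, FBL17 and 5 kinesins. None of the single-gene probes belonged to the lists of cyclins, of cyclin-dependent kinases and their inhibitors, of the E2F-RBR pathway, of DNA replication, of the anaphase-promoting complex, of tubulins and cytokinesis proteins, or of plastid division. The targets and partners of FBL17 were therefore not analysed here. A further 7 probes hold a listed locus among several genes and were not named.

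Beside AT3G20150, 3 kinesins could be tested, of which 1 rose and 2 did not pass. In limma, 16.5% of all 3256 tested probes were higher and 18.8% lower at an adjusted p under 0.05, so 1 call among 3 genes says nothing particular about kinesins. Their median log2 change was 0.05, against -0.0041 over all tested probes.

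AT3G44050, a kinesin of the same plant subfamily as AT3G20150, was the one that rose. Its log2 level was -0.79, -0.84, -0.63, -0.55, -0.84 and -0.86 on pStau arrays 1 to 6, against -1.88, -1.50, -1.21, -1.35, -1.79 and -1.50 on H2O arrays 1 to 6. All pStau arrays lay above all H2O arrays, which held for 8.11% of the tested probes. The pStau array was higher in 6 of 6 pairs, which held for 18.4%. The log2 change was 0.79 ± 0.12, or 1.73-fold (SE, n = 6 per group, limma adjusted p = 0.000947). As deposited its intensity averaged 0.481 ± 0.105 in pStau and 0.434 ± 0.047 in H2O (SD, n = 6 each). The groups overlapped in these values, and pStau was higher in 4 of 6 pairs. The call ended as deposited (log2 change 0.13, limma adjusted p = 0.462), after scaling each array to 1 common total (0.12, adjusted p = 0.466) and with consecutive arrays averaged (0.79, adjusted p = 0.1001). As deposited its change was 0.74 above the median of all probes.

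AT2G37420, a kinesin of the family that slides spindle microtubules apart, had a log2 change of 0.05 ± 0.17 (SE, n = 6 per group, limma adjusted p = 0.859). Its levels of -2.41 to -1.53 on pStau arrays overlapped with -2.14 to -1.72 on H2O arrays, and pStau arrays 3 and 4 were the lowest. AT1G21730 had a log2 change of -0.15 ± 0.19 (SE, n = 6 per group, limma adjusted p = 0.585), with levels of -3.06 to -1.86 in pStau and -2.74 to -2.14 in H2O. Its highest pStau level was on array 3 and its lowest on array 4, of the same set. Without pStau array 3 its change was -0.30 (limma adjusted p = 0.0987). AT2G37420 and AT1G21730 were both dimmer on the pStau array in 6 of 6 pairs as deposited, as were 43.1% of the tested probes. After scaling to a common total, both were called lower, with log2 changes of -0.92 for AT2G37420 (limma adjusted p = 0.0446) and -1.22 for AT1G21730 (limma adjusted p = 0.00356), which lay 0.29 and 0.60 below the median of all probes. The call of AT1G21730 was also made as deposited (-1.21, limma adjusted p = 0.00569). AT4G14330, the fifth kinesin, was listed at 0 on all 12 arrays and was not tested.

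Ratios within an array are given for AT3G20150 and AT3G44050 over the other kinesins. They are free of a common factor of the array, but not of a shift that differs between bright and dim probes. AT2G37420 and AT1G21730 were the dimmer probes on every pStau array. How far such a shift entered these ratios was not tested. The log2 ratio of AT3G20150 over AT2G37420, relative to its H2O mean, ran from 0.71 to 2.47 on pStau arrays, against -0.15 to 0.14 on H2O arrays. Over AT1G21730 it ran from 1.26 to 2.66 on pStau arrays, against -0.24 to 0.36 on H2O arrays. For AT3G44050, the ratio over AT2G37420 was 0.35 to 2.01 on pStau arrays, against -0.41 to 0.26 on H2O arrays, and over AT1G21730 it was 0.80 to 2.30 on pStau arrays, against -0.21 to 0.23 on H2O arrays. The groups were apart in all 4 ratios, which share their genes and are not separate observations. How many other probe pairs are apart was not computed. As deposited, the log2 change was 0.60 for AT3G20150 and 0.13 for AT3G44050, against -0.90 for AT2G37420 and -1.21 for AT1G21730. The median of all probes was -0.61. AT3G20150 was chosen for its rise and the pairs were formed after the values were seen. The separation of the ratios is therefore a description and is not tested.

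The genes with the most similar pattern were ranked by Pearson's r over the 12 arrays, among 651 other single-gene probes. Since r over levels contains the difference that picked the members, it was also taken over deviations from the group means. Nearest to FBL17 over levels were AT4G01810, AT2G31800, AT2G15440, AT1G13990 and AT4G27510, with r of 0.96, 0.96, 0.96, 0.95 and 0.93. Over deviations they were AT2G42490, AT3G15140, AT4G01810, AT3G26580 and AT1G13990, with r of 0.87, 0.87, 0.84, 0.83 and 0.82, so that AT4G01810 and AT1G13990 were among the nearest 5 by both measures. Nearest to AT3G20150 over levels were AT5G59400, AT2G31800, AT2G28660, AT4G33480 and AT4G15840, with r of 0.96, 0.95, 0.95, 0.94 and 0.94. Over deviations they were AT1G73120, LHB1B2, AT1G31790, AT4G00590 and AT4G15840, with r of 0.93, 0.93, 0.93, 0.91 and 0.90. LHB1B2 is thus close to AT3G20150 within the groups while its change runs the other way, at a log2 change of -0.84, and its r over levels is -0.63. These rankings depended on the measure. With Spearman's rho or the deposited values, 1 of the 5 genes over levels was found again for either member.

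FBL17 and AT3G20150 were not among each other's nearest genes. Over levels r between them was 0.87, which placed AT3G20150 number 23 for FBL17 and FBL17 number 21 for AT3G20150. Over deviations it was 0.08 over 12 arrays, 0.74 over the 6 pStau arrays and -0.38 over the 6 H2O arrays. Arrays of a set are close to each other in most cases, but FBL17 differed by 0.40 between H2O arrays 5 and 6. After normalization both genes were lowest in pStau on arrays 1 and 2. As deposited, pStau arrays 1 and 2 were instead the brightest for AT3G20150, and arrays 3 and 4 the dimmest for FBL17. In normalized H2O levels, FBL17 was highest on array 6, where AT3G20150 was lowest. AT3G44050 correlated with AT3G20150 over levels with r of 0.90, at number 13, and with FBL17 with r of 0.80, at number 53.

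**Figure D5:**
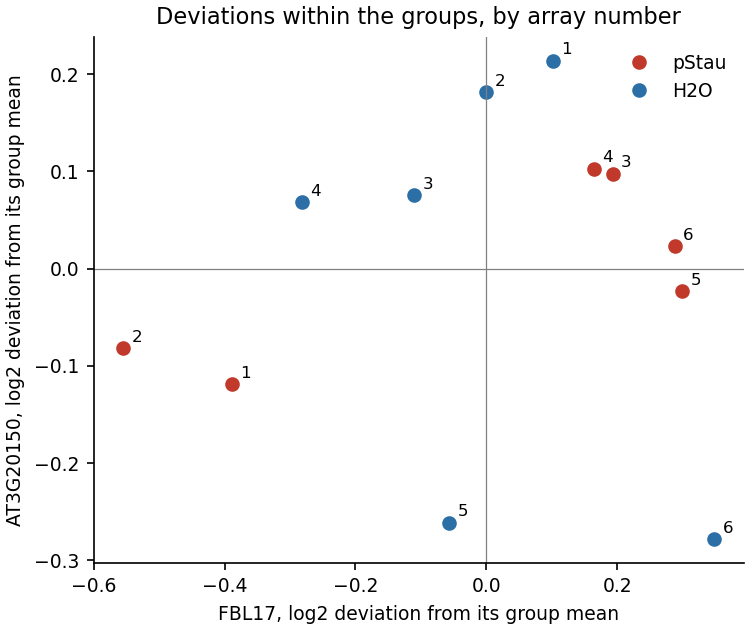
Deviation of the log2 level from the own group mean, FBL17 on the horizontal and AT3G20150 on the vertical axis, with 1 point per array, numbered as in the labels. The pStau arrays 1 and 2 are low for both genes, H2O array 6 is high for FBL17 (0.35) and low for AT3G20150 (-0.28), and arrays of the same set mostly lie together.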

How the data were processed

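The deposited table holds array intensity values of 12 samples. No label or header states how the authors corrected background or scaled them, and they were taken as linear. Of 3439 probes, 692 had 1 gene in the platform annotation, which can be old, 870 several and 1877 none. Of the 692, 690 matched the RefSeq table of TAIR10.1, used for names. The members and lists were chosen with earlier results of these data known.

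Positive values were quantile normalized, and zeros and values under the 1st percentile, 0.0167, set to it before log2. The 183 probes at 0 on all arrays were left out, so 3256 were tested with lmFit and eBayes in limma 3.58.1 (R 4.3.3), two-sided, Benjamini-Hochberg adjusted over all of them, threshold 0.05, without a block. The fit was tested on simulated data.

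Replicate numbers in the titles were taken to pair arrays. Deviations correlated with r of 0.31 to 0.54 in all 6 numbers, with nearly equal r for consecutive numbers. The r between different numbers was not computed, so these values do not show that arrays pair by number. The 6 pairs may not be independent of each other. The labels do not state the source of the pairing. The naming rule took both members, all measured list genes, the 5 genes most alike by each measure, and the genes beside the limit of 0. Words searched in RefSeq synonyms matched 177 genes, 0 of them with a single-gene probe. The search missed FBL17 and the 5 kinesins too, so it cannot tell whether further such genes are on the array. Alternatives were other scalings, floors, filters, blocks, averaging and left-out arrays. Figures used matplotlib 3.10.9. The number of arrays limits the precision.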

Additional observations from a re-analysis of the deposited data

How the results depend on the processing

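FBL17 and AT3G20150 were higher in pStau under all alternatives run. Both genes were chosen for a rise in every array set, so under blocks, averaging or left-out sets this direction was fixed in advance. Their log2 changes moved by more than their replicate spread as deposited (0.38 and 0.60) and after scaling to a common total (0.37 and 0.59), and AT3G20150 also after centring on the array median (1.47) and with a pseudocount of 0.1 (0.97). Leaving out single arrays gave 1.02 to 1.19 for FBL17 and 1.10 to 1.20 for AT3G20150. The 1148 probes called, 536 higher and 612 lower, became 524 with consecutive arrays as a random block, 3 with them averaged, 484 without arrays 3 and 4 of both groups and 515 without arrays 5 and 6, and 973 to 1250 without single arrays. The split was 205 higher and 1349 lower as deposited, 207 and 1463 after scaling to a common total, and 949 and 476 after centring on the array median. With the replicate block 1279 probes were called, and no call of the listed genes changed.

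The 5 list genes tested include FBL17 and AT3G20150, which were chosen for their rise, so their calls support nothing. With both counted, limma called 3, also without any single array, and 0 with consecutive arrays averaged, which leaves 3 values per group. Of the 3 genes not chosen, 1 was called, AT3G44050. After normalization it also rose in every array set, but as deposited only in the first. With arrays averaged, 0 of these 3 were called and 1 had an unadjusted limma p under 0.05. As deposited 2 of the 5 were called, 1 higher and 1 lower. AT2G37420 was lower as deposited (-0.90), after scaling to a common total (-0.92) or centring on the array median (-0.035) and without arrays 1 and 2 (-0.033) or 5 and 6 (-0.14), and ran from -0.019 to 0.16 without single arrays. AT1G21730 was higher with cyclic loess (0.035). The cause was not tested. Of the 5 genes nearest to FBL17, Spearman's rho found 1 over levels and 3 over deviations again, and the deposited values 1 and 0. For AT3G20150 these were 1 and 2, and 1 and 2.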
